A study of Mus musculus with 6 samples.

Results

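Bile acid synthesis was followed through 10 genes: the hydroxylases Cyp7a1, Cyp8b1, Cyp27a1 and Cyp7b1, the ring-modifying enzymes Hsd3b7 and Akr1d1, the side chain enzyme Amacr, the conjugating enzymes Slc27a5 and Baat, and the repressor Nr0b2, which encodes SHP. They were taken by gene symbol from a deposited table of 17441 genes; all 10 were present, and all 10 were among the 13160 genes that passed the filter on low counts. RNA-seq had been run on livers of mice labelled as inducible whole-body knockouts of Nek7 (iKO, 3 livers) and on livers labelled wild type (WT, 3 livers), all 6 taken 10 days after a tamoxifen injection. Nek7 encodes a mitotic kinase that also takes part in NLRP3 inflammasome assembly, and the series title places the comparison in the setting of acetaminophen liver injury. The labels give neither the Cre driver nor the age, sex, strain or hour of collection of the animals, and no acetaminophen treatment is named for these 6 livers.

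Hepatocytes make bile acids from cholesterol by a classic route that opens with hydroxylation by CYP7A1, the rate-limiting enzyme, and by an alternative route that opens with CYP27A1 and goes on through CYP7B1. CYP8B1 sets the share of cholic acid among the products, and the finished acids are joined to taurine or glycine before export. Bile acids returning to the liver activate the receptor FXR, which induces SHP, and SHP in turn represses Cyp7a1 and Cyp8b1; intestinal FGF15 adds a second brake through the receptor FGFR4 and its partner beta-Klotho.

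Library totals lay between 18139500 and 19912000 expected counts. Nek7 itself read 50.2, 32.8 and 31.0 CPM (counts scaled to a common library size, TMM-normalized) in the 3 livers labelled iKO, against 55.5, 40.5 and 36.3 CPM in WT. Its log2 fold change in edgeR was -0.22 with an SE of 0.23 (adjusted p = 0.541). These gene totals do not set the knockout apart and cannot show a deleted exon, so the livers are called "labelled iKO". Y-linked reads divided the livers otherwise than the labels do: Ddx3y and Kdm5d gave 0 counts in WT 2 and WT 3 and were present in WT 1 and in all 3 livers labelled iKO. Levels of Cyp2b13 and Mup20 split the livers in the same way. Cyp2b13 reached 269 CPM in WT 2 and 293 CPM in WT 3, and at most 0.59 CPM in any other liver. Mup20 was low in WT 2 (162 CPM) and WT 3 (111 CPM), and between 5900 and 7440 CPM in the livers with Y-linked reads. The labels do not give the sex of the animals, and its part in this divide was not tested. For results that change with this divide, values within the 4 livers with Y-linked reads are given also. There WT 1 is the only WT liver and is assumed to vary as the others do. Liver iKO 1 had the lowest TMM factor, 0.780, and the lowest albumin share, 5.18% of its counts, where the other 5 livers had 7.57% to 10.7%. The labels do not describe the animals behind the replicate numbers, so p-values measure only the spread between these samples. By its Y-linked reads WT 1 is another animal than WT 2 and WT 3, and the rest of the spread may be technical.

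Of the 10 genes, Cyp7a1 rose, Hsd3b7 fell and the other 8 were not called at an adjusted p under 0.05. The background over all tested genes was 15.4% called, of which the higher share was 7.31% and the lower share 8.07%, so 1 gene in each direction among 10 lies near that background. The median log2 fold change was 0.18 over the 10 genes and -0.02 over all tested genes. The CPM ranges of the groups did not overlap for 3 of the 10 genes (Cyp7a1 higher, Hsd3b7 and Akr1d1 lower), against 39.0% of all tested genes, 19.8% apart upward and 19.2% apart downward. In bulk liver a gene that is lower because fewer cells of its type were sampled and one that is lower within each cell cannot be told apart. Within the 4 livers with Y-linked reads Cyp7a1 was the 1 call, against 1.06% of all tested genes called and 0.509% called higher. In edgeR, 0 of the 10 were called once Y-linked reads entered as a term, against 1.40% of all tested genes.

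**Figure D1:**
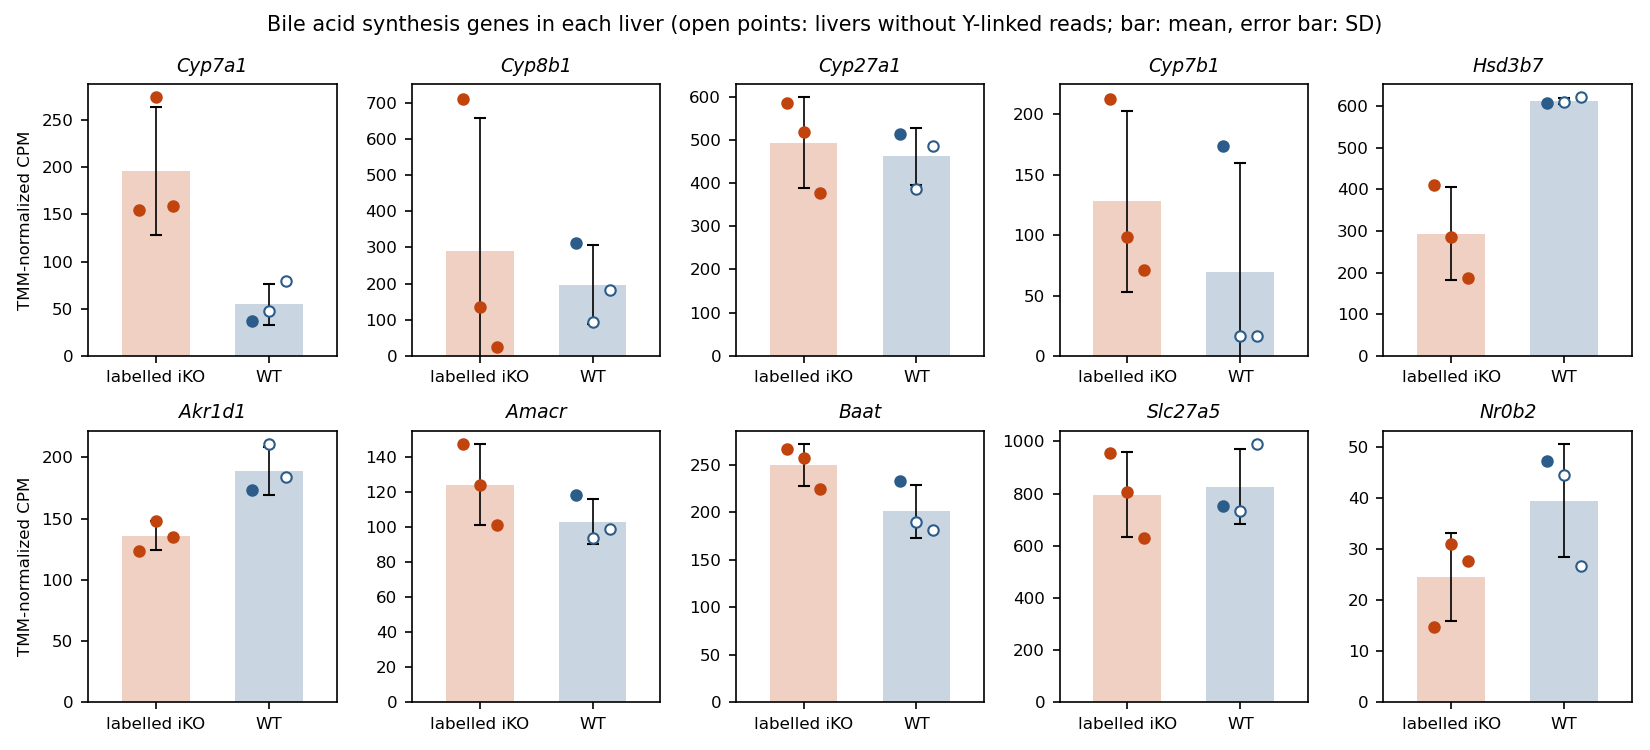
TMM-normalized CPM of the 10 genes in each liver, with livers labelled iKO left and WT right in every panel; bars are means, error bars SD (n = 3 each), and open points are the livers without Y-linked reads. The groups are apart for Cyp7a1, Hsd3b7 and Akr1d1, Cyp7b1 is low in WT 2 and WT 3 alone, and Cyp8b1 runs from 25.2 to 711 CPM among the livers labelled iKO.

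Cyp7a1 (gene ID 13122) stood at 155, 274 and 159 CPM in iKO 1, iKO 2 and iKO 3, against 37.0, 47.5 and 79.3 CPM in WT 1, WT 2 and WT 3. Every liver labelled iKO was above every WT liver, with iKO 2 highest and WT 1 lowest. The means were 196 ± 67.7 CPM in the livers labelled iKO and 54.6 ± 22.0 CPM in WT (SD, n = 3 each), a 3.58-fold difference with a 95% interval of 2.13 to 6.03. In edgeR's quasi-likelihood fit this was 1.84 on the log2 scale with an SE of 0.33 (adjusted p = 0.00988), and 97.6% of tested genes had an absolute change no larger. The call held in each of the 6 fits that left out 1 liver, with log2 fold changes between 1.55 and 2.21 and adjusted p up to 0.0438. Since WT 1 was the lowest of the WT livers, the change was larger within the 4 livers with Y-linked reads, 2.41 (SE 0.47, adjusted p = 0.0309 by edgeR). A term for Y-linked reads over all 6 livers gave 2.40 with an adjusted p of 0.0519, just above the threshold of 0.05.

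Cyp8b1 (gene ID 13124), the sterol hydroxylase needed for cholic acid, varied more than any other of the 10 genes. It stood at 711, 134 and 25.2 CPM in iKO 1, iKO 2 and iKO 3, against 313, 94.3 and 182 CPM in WT 1, WT 2 and WT 3. The highest and the lowest of the 6 livers both carried the iKO label, 28.2-fold apart, and the WT livers spanned 3.32-fold between them. The log2 fold change of 0.56 had an SE of 1.26 (adjusted p = 0.796 by edgeR), with a 95% interval of -2.76 to 3.89, and its sign turned on iKO 1: without that liver it was -1.30. The value was also below 0, at -0.55, on the log2(FPKM + 1) scale.

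The stretches of DNA upstream of Cyp8b1 and of 3 genes with lower mean values in the livers labelled iKO are shown here because the promoter is where regulators of a gene commonly bind. RefSeq windows (build GRCm38.p6) matched 5 of the 10 genes. Cyp7a1 was not among them, so its promoter was not searched. For 4 of them the bases after the annotated start were found in a GENCODE transcript of the gene, for Cyp27a1 they were not, and its window is not printed. In the other 4 the 250 bases before the annotated start are printed 5′ to 3′ on the gene's strand, with matches to any of 8 searched motifs in capitals. The windows are chr9:121916306-121916555, minus strand for Cyp8b1, chr7:127800359-127800608, plus strand for Hsd3b7, chr6:37529923-37530172, plus strand for Akr1d1, and chr4:133553126-133553375, plus strand for Nr0b2.
Cyp8b1: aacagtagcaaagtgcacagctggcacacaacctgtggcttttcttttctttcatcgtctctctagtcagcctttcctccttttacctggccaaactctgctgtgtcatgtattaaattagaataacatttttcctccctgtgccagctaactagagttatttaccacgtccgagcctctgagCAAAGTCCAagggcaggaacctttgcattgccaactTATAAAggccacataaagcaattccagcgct
Hsd3b7: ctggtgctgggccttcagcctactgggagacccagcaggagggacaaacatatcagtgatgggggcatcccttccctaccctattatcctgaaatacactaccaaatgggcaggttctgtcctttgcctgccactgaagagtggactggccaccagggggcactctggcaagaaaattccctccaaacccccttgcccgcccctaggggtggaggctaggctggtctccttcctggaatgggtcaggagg
Akr1d1: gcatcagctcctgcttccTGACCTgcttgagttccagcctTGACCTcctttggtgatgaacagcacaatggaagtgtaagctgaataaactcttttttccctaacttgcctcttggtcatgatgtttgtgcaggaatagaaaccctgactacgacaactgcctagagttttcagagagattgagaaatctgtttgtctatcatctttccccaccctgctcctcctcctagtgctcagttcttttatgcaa
Nr0b2: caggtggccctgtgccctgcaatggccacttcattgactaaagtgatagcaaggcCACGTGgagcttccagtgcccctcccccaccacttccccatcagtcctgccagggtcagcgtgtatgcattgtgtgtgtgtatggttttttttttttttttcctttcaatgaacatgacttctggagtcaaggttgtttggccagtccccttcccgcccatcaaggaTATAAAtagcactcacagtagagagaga
The motifs, searched on both strands, were CACGTG (E-box), TTATGTAA and TTACGTAA (D-box cores, bound by DBP and TEF), AGGTCA and AAGGTCA (nuclear receptor half-sites, the second containing the first), the inverted repeat of AGGTCA spaced by 1 base (the FXR type, which overlaps AGGTCA), CAAAGTCCA (an HNF4A type site) and TATAAA. The Cyp8b1 window holds CAAAGTCCA at -67 to -59 from the start and TATAAA at -31 to -26. CAAAGTCCA occurs in 0.384% of all 32851 windows of this length and TATAAA in 12.4%. The Akr1d1 window holds AGGTCA on the reverse strand, from -232 to -227 and from -210 to -205, a motif found in 14.0% of windows. The Nr0b2 window holds CACGTG at -195 to -190, found in 6.02% of windows, and TATAAA at -28 to -23. The Hsd3b7 window holds 0 of the 8 motifs. TTATGTAA, TTACGTAA, AAGGTCA and the inverted repeat, which occur in 0.819%, 0.113%, 4.08% and 0.00609% of windows, were in 0 of the 4 printed windows.

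The balance of the 2 hydroxylases of the classic route was compared within each liver on the TPM scale, which is per transcript length. Cyp8b1 was 9.98, 1.06 and 0.345 times Cyp7a1 in iKO 1, iKO 2 and iKO 3, against 18.4, 4.30 and 4.98 times in WT 1, WT 2 and WT 3. The ratio in iKO 1 lay inside the WT range and the other 2 livers labelled iKO lay below it. On the log2 scale the ratio averaged 0.62 ± 2.47 in the livers labelled iKO and 2.87 ± 1.15 in WT (SD, n = 3 each), a difference of -2.25 with p = 0.3 by a 2-sided exact permutation test, the smallest p that 3 livers a group allow being 0.1. Without iKO 1 the difference was -3.60 with p = 0.1 by the same exact permutation test, again the smallest it allows. That p was fixed once iKO 1 was left out, since the other livers labelled iKO lay below the WT range. Leaving out any other liver gave differences from -2.63 to -1.17 with p from 0.3 to 0.6 by that test.

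**Figure D2:**
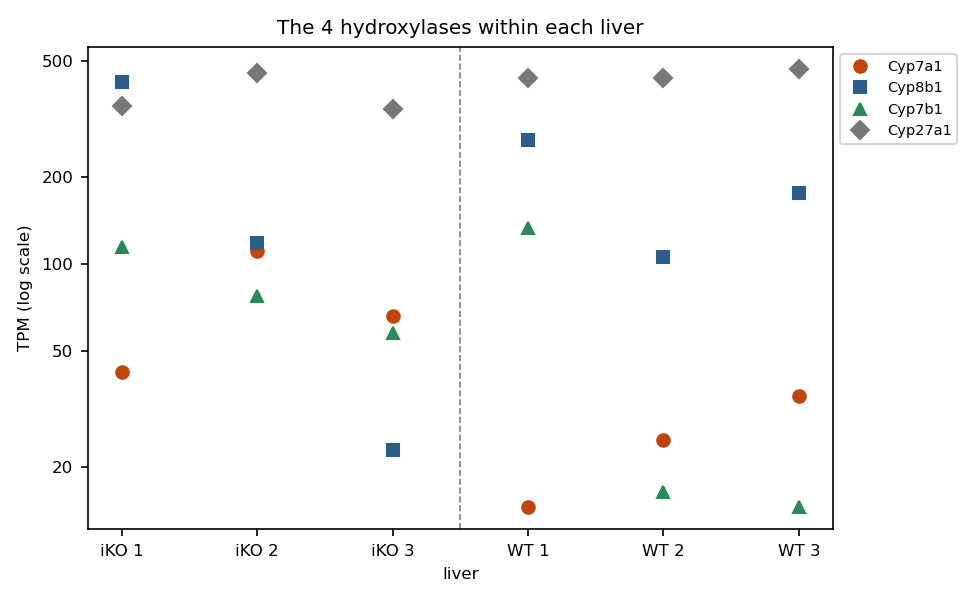
TPM of the 4 hydroxylases (log axis) in each liver, those labelled iKO left of the dashed line and WT right of it. Cyp27a1 stays between 343 and 470 TPM, and Cyp8b1 falls below Cyp7a1 only in iKO 3, at 22.8 against 66.0 TPM.

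On the alternative route, Cyp27a1 (gene ID 104086), the mitochondrial hydroxylase that also serves macrophages, stood at 584, 518 and 378 CPM in the livers labelled iKO, against 513, 387 and 486 CPM in WT. The ranges overlapped and the log2 fold change was 0.09 (95% interval -0.42 to 0.61, adjusted p = 0.808 by edgeR); on the log2(FPKM + 1) scale it was -0.10. Markers of Kupffer cells and macrophages were lower in the same livers, 6 of 10 called lower, where 8.07% of all tested genes were. Their summed level was 273 to 340 CPM in those labelled iKO and 387 to 718 CPM in WT. Within the 4 livers with Y-linked reads the median log2 fold change of these 10 markers was -0.42, against -1.01 over all 6 livers. Their part in the Cyp27a1 value was not tested.

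Cyp7b1 (gene ID 13123), which acts next on that route and is known as male-biased in mouse liver, stood at 213, 98.7 and 71.0 CPM in iKO 1, iKO 2 and iKO 3, against 174, 16.2 and 16.8 CPM in WT 1, WT 2 and WT 3. The 2 low livers were WT 2 and WT 3, the livers without Y-linked reads, and WT 1 lay within the range of the livers labelled iKO. WT 1 held 10.5 times the mean of WT 2 and WT 3. Over all 6 livers edgeR gave a log2 fold change of 0.89 with an SE of 1.17 (adjusted p = 0.645). It was -0.43 (SE 0.61, adjusted p = 0.794) within the 4 livers with Y-linked reads and -0.45 with a term for those reads. Leaving out WT 1 gave 2.95 (SE 0.49, adjusted p = 0.0120), a fit in which every WT liver lacks Y-linked reads and every liver labelled iKO holds them, so label and Y-linked reads cannot be told apart there.

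Hsd3b7 (gene ID 101502), the dehydrogenase that both routes need for the sterol ring, stood at 411, 285 and 187 CPM in iKO 1, iKO 2 and iKO 3, against 607, 610 and 621 CPM in WT 1, WT 2 and WT 3. All 3 livers labelled iKO lay below the WT livers, which were within 1.02-fold of each other, the narrowest span of any of the 10 genes in WT. The means were 294 ± 112 CPM in the livers labelled iKO and 613 ± 7.40 CPM in WT (SD, n = 3 each), which is 0.480 times the WT level (95% interval 0.311 to 0.740). On the log2 scale Hsd3b7 changed by -1.06 with an SE of 0.28 (adjusted p = 0.0339 by edgeR). The WT livers with and without Y-linked reads had nearly the same level, WT 1 at 0.987 times the mean of WT 2 and WT 3, and within the 4 livers with Y-linked reads the log2 fold change was -1.03 with an adjusted p of 0.350. The call also ended without iKO 2, iKO 3, WT 1, WT 2 or WT 3 (adjusted p up to 0.117, without WT 2), with log2 fold changes from -1.37 to -0.79 over the 6 fits that left out 1 liver.

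Akr1d1 (gene ID 208665), the reductase that gives bile acids their bent ring, stood at 124, 148 and 135 CPM in the livers labelled iKO, against 173, 211 and 184 CPM in WT. The groups did not overlap, the lowest WT liver being WT 1 and the highest liver labelled iKO being iKO 2. The log2 fold change was -0.48 (SE 0.18, 95% interval -0.87 to -0.08), and its p of 0.0223 became 0.0908 after adjustment over all genes tested by edgeR. Expected counts of Akr1d1 were whole in 0 of the 6 libraries, as happens where reads are divided between genes, which makes the Akr1d1 level uncertain.

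The side chain and conjugation enzymes had overlapping groups and no call. Amacr (gene ID 17117), the racemase that readies the side chain for peroxisomal shortening, stood at 147, 124 and 101 CPM in the livers labelled iKO, against 118, 93.4 and 98.6 CPM in WT (log2 fold change 0.26, adjusted p = 0.375 by edgeR). Slc27a5 (gene ID 26459), the bile acid CoA ligase, stood at 954, 805 and 628 CPM in the livers labelled iKO, against 752, 735 and 990 CPM in WT (log2 fold change -0.05, 95% interval -0.60 to 0.49). Baat (gene ID 12012), which joins the activated acid to its amino acid, stood at 267, 257 and 225 CPM in the livers labelled iKO, against 233, 190 and 181 CPM in WT (log2 fold change 0.31, 95% interval -0.11 to 0.73). For each of these 3 enzymes the highest liver labelled iKO was iKO 1 and the lowest was iKO 3. The same order held for Cyp8b1, Cyp27a1, Cyp7b1 and Hsd3b7 in CPM. On the TPM scale it held for Cyp8b1 and Cyp7b1 alone among these 7 genes, and iKO 1 was the liver with the lowest TMM factor.

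Nr0b2 (gene ID 23957), the repressor SHP, stood at 14.8, 31.1 and 27.6 CPM in iKO 1, iKO 2 and iKO 3, against 47.2, 44.5 and 26.8 CPM in WT 1, WT 2 and WT 3. The groups met at WT 3, which lay below iKO 2 and iKO 3. The means were 24.5 ± 8.61 CPM in the livers labelled iKO and 39.5 ± 11.1 CPM in WT (SD, n = 3 each), and the log2 fold change was -0.68 with a 95% interval of -1.38 to 0.01 (adjusted p = 0.155 by edgeR). Without WT 3 it was -0.90 with an adjusted p of 0.0850, the lowest of any fit that left out 1 liver. The WT liver with the least Nr0b2, WT 3, was the one with the most Cyp7a1, while among the livers labelled iKO the most of both genes was in iKO 2.

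**Figure D3:**
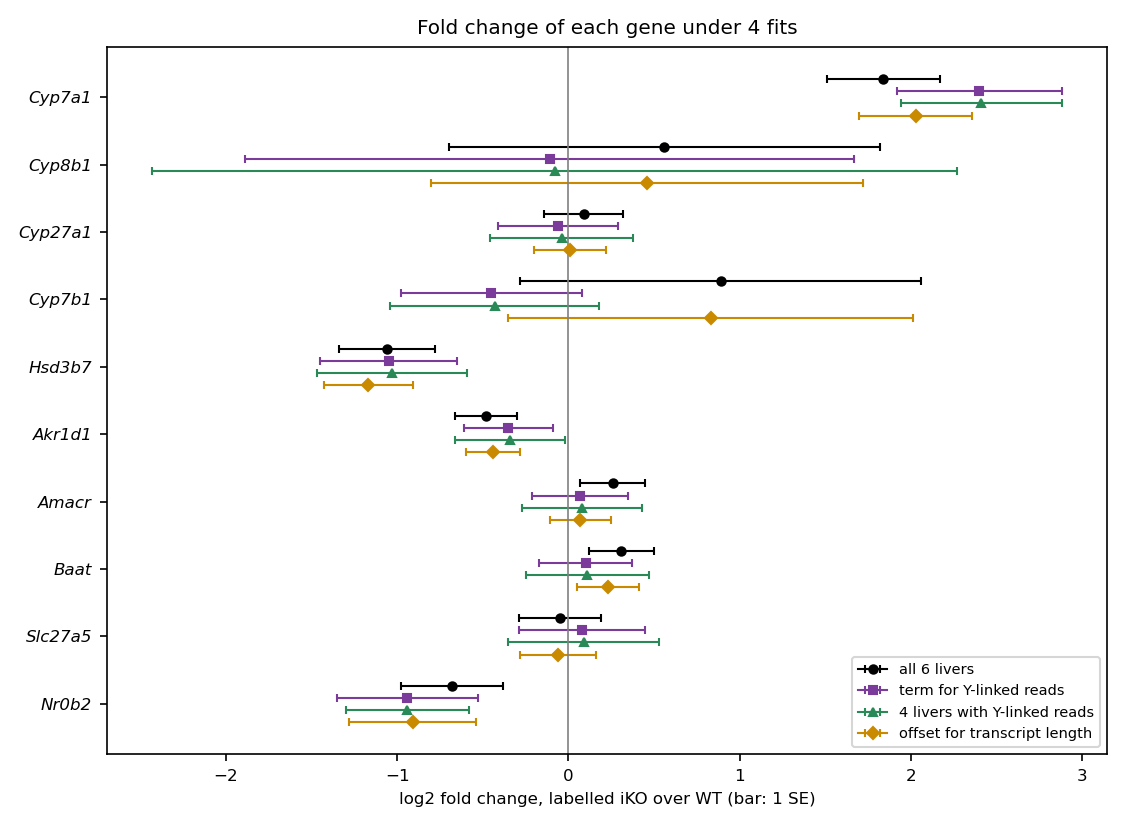
Log2 fold change of each gene, livers labelled iKO over WT, with bars of 1 SE, in the fit of all 6 livers, with a term for Y-linked reads, in the 4 livers with such reads and with an offset for transcript length. Cyp7a1 stays between 1.84 and 2.41 and Hsd3b7 between -1.17 and -1.03, while Cyp7b1, Cyp8b1, Cyp27a1 and Slc27a5 change sign between fits.

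Levels of different genes were ranked on the TPM scale. In the livers labelled iKO the mean TPM ran from 511 ± 66.5 for Slc27a5 and 383 ± 63.5 for Cyp27a1 to 237 ± 48.1 for Hsd3b7, 196 ± 33.6 for Baat, 188 ± 209 for Cyp8b1, 133 ± 12.6 for Amacr, 83.0 ± 28.4 for Cyp7b1, 79.1 ± 22.0 for Akr1d1, 73.0 ± 34.7 for Cyp7a1 and 31.3 ± 15.5 for Nr0b2 (SD, n = 3). In WT it ran from 673 ± 131 for Slc27a5 and 646 ± 91.2 for Hsd3b7 to 449 ± 18.2 for Cyp27a1, 196 ± 20.4 for Baat, 183 ± 80.6 for Cyp8b1, 138 ± 34.3 for Akr1d1, 132 ± 6.84 for Amacr, 59.7 ± 18.9 for Nr0b2, 54.7 ± 68.0 for Cyp7b1 and 24.8 ± 10.3 for Cyp7a1 (SD, n = 3). In the livers labelled iKO the neighbours farther apart than the larger SD were Slc27a5 and Cyp27a1, Cyp27a1 and Hsd3b7, Amacr and Cyp7b1, and Cyp7a1 and Nr0b2. In WT they were Hsd3b7 and Cyp27a1, Cyp27a1 and Baat, and Amacr and Nr0b2, and the other neighbours lay within that spread. Cyp7a1, last in the WT order, made up 0.609%, 0.972% and 1.37% of the TPM summed over the 9 enzymes in WT 1, WT 2 and WT 3, and 2.12%, 5.31% and 4.22% in iKO 1, iKO 2 and iKO 3. The summed TPM of the 9 enzymes was 1999, 2084 and 1564 in the livers labelled iKO and 2386, 2542 and 2558 in WT. That separation depended on the scale, since the summed TMM-normalized CPM of the 10 genes overlapped, at 1940 to 3580 in the livers labelled iKO and 2430 to 2970 in WT.

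Of 31 tested receptors, cofactors and clock-linked factors that act on the pathway, 9 were higher and 2 lower, with a median log2 fold change of 0.28, where 7.31% of all tested genes were higher and 8.07% lower. The clock-linked genes Dbp, Tef, Nr1d2, Bhlhe40 and Bhlhe41 were among the 9, so the count does not stand for receptors and cofactors alone. With a term for Y-linked reads 2 of the 31 were higher and 0 lower by edgeR, against 1.40% of all tested genes called. In the 4 livers with such reads the median log2 fold change of the 31 was 0.3. Dbp, a transcription factor of the PAR bZIP family known to drive Cyp7a1 in rodent liver, stood at 99.8, 141 and 144 CPM in the livers labelled iKO, against 0.797, 1.24 and 2.27 CPM in WT (log2 fold change 6.47, adjusted p = 0.000153 by edgeR). Tef, of the same family, stood at 111, 156 and 169 CPM in the livers labelled iKO, against 26.9, 33.2 and 45.3 CPM in WT (log2 fold change 2.05, adjusted p = 0.00170 by edgeR). The 3 WT livers had the same order for Dbp, Tef and Cyp7a1, WT 1 lowest and WT 3 highest, while in the livers labelled iKO the highest was iKO 3 for Dbp and Tef and iKO 2 for Cyp7a1. Dbp and Tef were the 2 that held their call with a term for Y-linked reads (adjusted p = 0.00114 for Dbp and 0.0171 for Tef by edgeR). Within the 4 livers with such reads their log2 fold changes were 7.33 and 2.44. Expected counts of Dbp were whole in 0 of the 6 libraries, as for Akr1d1. Clock genes outside the list differed as well. Arntl averaged 2.68 ± 1.15 CPM in the livers labelled iKO and 31.4 ± 0.962 CPM in WT, and fell by 3.56 on the log2 scale. Npas2 fell by 4.26, while Per1, Per2, Per3 and Ciart rose by 2.99, 2.43, 2.89 and 6.26, all called by edgeR. The labels do not give the hour of collection, and its part in the Dbp, Tef and Cyp7a1 values was not tested.

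Of the other called regulators, those with the largest changes were the repressors Bhlhe41 and Bhlhe40, the REV-ERB gene Nr1d2 and Klf15. Klf15, which is known in mice to act on bile acid synthesis by way of intestinal FGF15, averaged 264 ± 7.18 CPM in the livers labelled iKO and 131 ± 14.8 CPM in WT (SD, n = 3 each; adjusted p = 0.00794 by edgeR). Nr1d2 averaged 60.0 ± 20.3 CPM in the livers labelled iKO and 24.6 ± 0.911 CPM in WT, a log2 fold change of 1.29. Bhlhe41 rose by 4.05 and Bhlhe40 by 1.39 on the log2 scale, and the Bhlhe40 call ended without iKO 1, iKO 2, WT 1 or WT 2 (adjusted p up to 0.106). Nr1d1, which encodes REV-ERB alpha, a factor known to act on Cyp7a1 in mice, stood at 251, 202 and 55.9 CPM in the livers labelled iKO, against 60.0, 84.4 and 80.8 CPM in WT, and was not called (adjusted p = 0.159). The calls of Klf15, Nr1d2 and Bhlhe41 held whichever liver was left out. With a term for Y-linked reads these calls ended (adjusted p = 0.0835, 0.156 and 0.131 by edgeR). Within the 4 livers with such reads, WT 1 being the only WT liver, their log2 fold changes were 1.21, 1.28 and 3.54. Over all 6 livers they were 1.02, 1.29 and 4.05.

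The receptors of the feedback loop were named after their values were seen. Nr1h4, which encodes FXR, stood at 140, 134 and 127 CPM in the livers labelled iKO, against 111, 69.8 and 78.5 CPM in WT, without overlap and without a call (log2 fold change 0.63, adjusted p = 0.0626 by edgeR). WT 1, with Y-linked reads, was the nearest of the WT livers, and within the livers with such reads the log2 fold change of Nr1h4 was 0.28. Nr5a2, which encodes LRH-1, the activator on which SHP acts, averaged 42.6 ± 5.01 CPM in the livers labelled iKO and 64.6 ± 3.10 CPM in WT (SD, n = 3 each; log2 fold change -0.60, adjusted p = 0.0316). Klb, the gene of beta-Klotho, averaged 28.8 ± 3.80 CPM in the livers labelled iKO and 47.3 ± 7.52 CPM in WT (log2 fold change -0.72, adjusted p = 0.0262), while its partner Fgfr4 averaged 53.5 ± 4.17 CPM in the livers labelled iKO and 51.1 ± 6.77 CPM in WT (adjusted p = 0.803). Expected counts of Klb, like those of Nr1d1, were whole in 0 libraries. The call of Nr5a2 ended in 5 of the 6 fits that left out 1 liver, all but that without iKO 2, and the call of Klb ended without iKO 3, WT 2 or WT 3. Both also ended with the offset for transcript length (adjusted p = 0.0997 for Nr5a2 and 0.104 for Klb). Hnf4a, the hepatocyte factor whose type of site lies in the Cyp8b1 window, averaged 879 ± 158 CPM in the livers labelled iKO and 507 ± 51.2 CPM in WT (adjusted p = 0.0414), a call that held in 0 of the 6 fits that left out 1 liver (adjusted p up to 0.145).

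**Figure D4:**
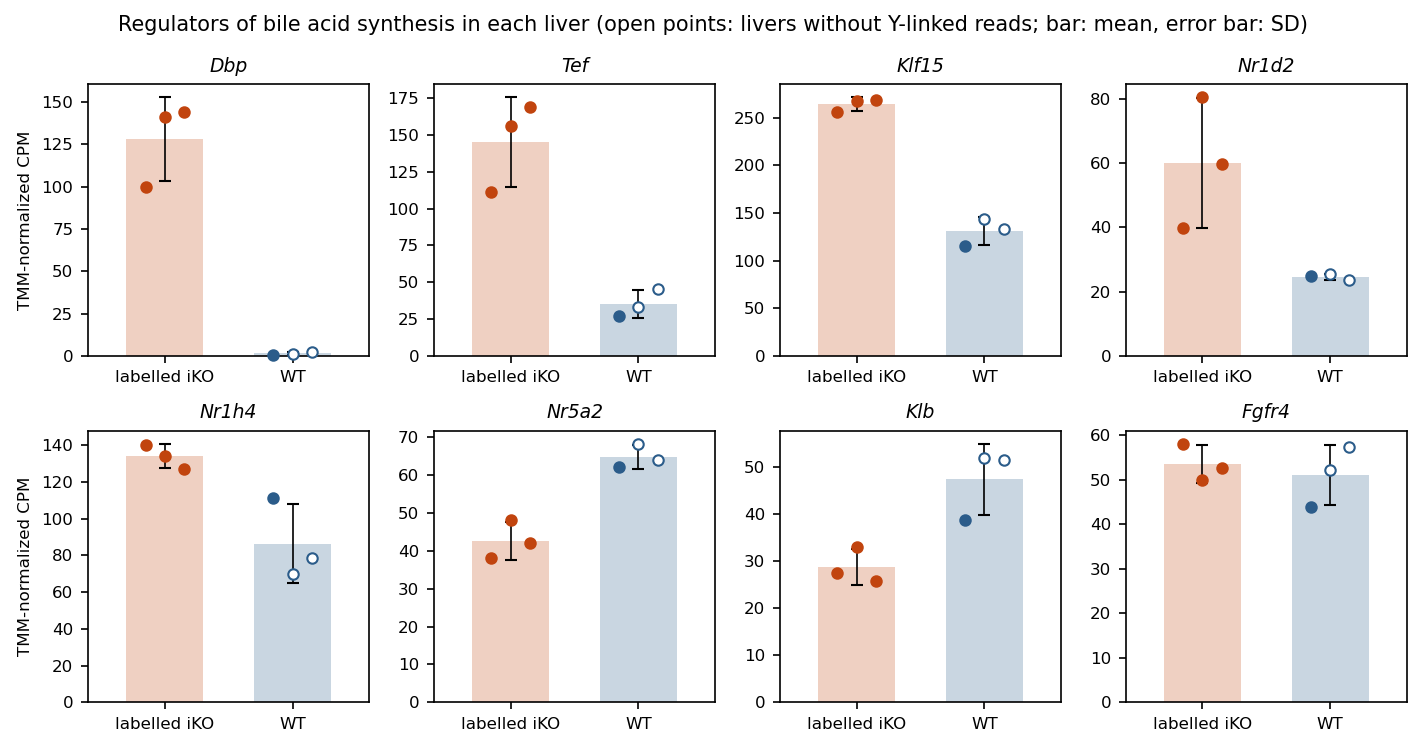
TMM-normalized CPM of 8 regulators in each liver, livers labelled iKO left and WT right; bars are means, error bars SD (n = 3 each), and open points are the livers without Y-linked reads. Dbp and Tef do not overlap between the groups, Nr5a2 and Klb are lower in the livers labelled iKO, and Fgfr4 overlaps.

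Of the 13 tested enzymes of sterol side chains and bile acid modification outside the 10 genes, 0 were called by edgeR or DESeq2. In edgeR 15.4% of all tested genes were called, and 0 of the 13 had an unadjusted p under 0.05. The groups did not overlap for Slc27a2 and Cyp2a12, both higher in the livers labelled iKO, where 19.8% of all tested genes were apart upward. Slc27a2, a peroxisomal CoA ligase, averaged 924 ± 83.2 CPM in the livers labelled iKO and 648 ± 142 CPM in WT (SD, n = 3 each; adjusted p = 0.158), and Cyp2c70, the muricholic acid enzyme of mice, averaged 741 ± 160 CPM in the livers labelled iKO and 774 ± 11.7 CPM in WT (adjusted p = 0.876). Of 14 cholesterol supply and use genes 4 were called, all lower, where 8.07% of all tested genes were lower. In the 4 livers with Y-linked reads the median log2 fold change of the 14 was -0.02, against -0.33 over all 6 livers. Insig1, a brake on cholesterol synthesis, averaged 170 ± 16.3 CPM in the livers labelled iKO and 515 ± 99.4 CPM in WT, or -1.60 on the log2 scale (adjusted p = 0.00251 by edgeR), and was called whichever liver was left out. The Insig1 call ended with a term for Y-linked reads (log2 fold change -1.41, adjusted p = 0.0564 by edgeR). In the 4 livers with such reads the Insig1 log2 fold change was -1.40. Insig2, Mylip and Abca1 fell by 1.21, 1.30 and 0.80 on the log2 scale, and each of these calls ended without at least 1 of the livers, WT 2 among them in every case (adjusted p up to 0.145 for Abca1). Among 12 tested transporters, against 15.4% called of all tested genes, the phospholipid pump Abcb4 was higher and Abcc2, Atp8b1 and Abcg8 were lower, while the bile salt export pump Abcb11 averaged 343 ± 77.4 CPM in the livers labelled iKO and 580 ± 111 CPM in WT without a call (adjusted p = 0.0637). All 4 transporter calls ended without WT 2 (adjusted p = 0.195 for Abcc2 by edgeR). In the 4 livers with Y-linked reads the median of the 12 was -0.38, against -0.61 over all 6 livers.

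**Figure D5:**
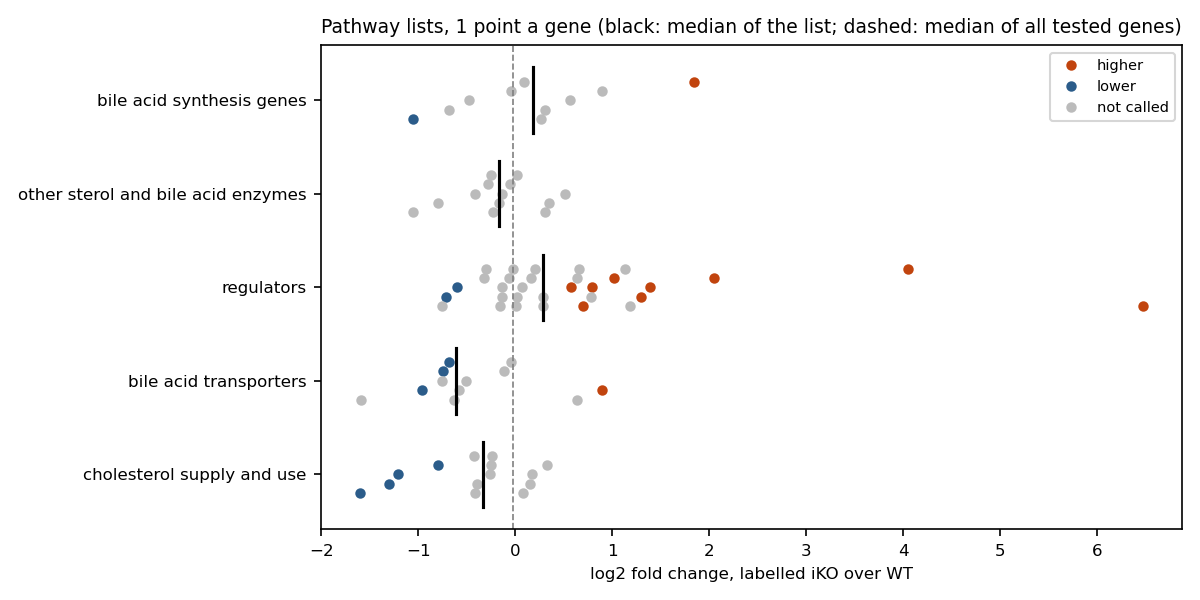
Log2 fold change of each tested gene, livers labelled iKO over WT, in the bile acid synthesis genes and 4 related lists; colours give the calls, black lines the list medians and the dashed line the median of all tested genes, -0.02. The regulators reach 6.47, for Dbp, and the cholesterol and transporter lists have medians of -0.33 and -0.61.

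By the root mean square difference of log2 CPM centred on each gene's mean over the 6 livers, the 3 genes most like Cyp7a1 among 12226 were Cela2a at 0.18, Tef at 0.30 and Isyna1 at 0.30, where Cyp7a1 itself varied by 1.02 around its mean. For Cyp8b1, which varied by 1.49, they were E2f8 at 0.60, Egr1 at 0.68 and Pdk4 at 0.69. For Cyp7b1, which varied by 1.47, they were Ttc39c at 0.30, Selenbp2 at 0.37 and Gstp1 at 0.38, and each of these was lower in WT 2 and WT 3 than in WT 1. For Nr0b2, which varied by 0.55, they were Pds5b at 0.06, Rev3l at 0.08 and Zfp955a at 0.09. With 6 livers in 2 groups, genes that share the difference between the groups are alike by this measure. Expected counts of Cela2a, Selenbp2, Gstp1, Pdk4 and Zfp955a were whole in 0 of the 6 libraries, so their levels are less certain.

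The tissue label was checked against 11 hepatocyte markers, whose summed level was 127000 to 149000 CPM in the livers labelled iKO and 128000 to 136000 CPM in WT, with 1 called higher (Hnf4a). Over all tested genes 7.31% were called higher and 8.07% lower. Stellate cell and fibroblast markers were lower, 8 of 10 called, at 142 to 180 CPM summed in the livers labelled iKO and 309 to 514 CPM in WT. Of 10 sinusoidal endothelial markers 3 were called lower, at 82.0 to 186 CPM summed in the livers labelled iKO and 207 to 322 CPM in WT. Within the 4 livers with Y-linked reads the median log2 fold change of the stellate markers was -1.01, against -1.71 over all 6 livers. For the endothelial markers it was -0.39, against -0.86. Of 9 cholangiocyte markers 1 was called lower, at 97.7 to 457 CPM summed in the livers labelled iKO and 166 to 257 CPM in WT. Of 4 tested intestinal markers 2 rose and 1 fell, at 59.4 to 87.5 CPM summed in the livers labelled iKO and 41.3 to 71.5 CPM in WT, with Cdx2 at 0 in all 6 libraries. In the 4 livers with Y-linked reads the hepatocyte, cholangiocyte and intestinal medians were 0.12, 1.1 and 0.79 on the log2 scale. Over all 6 livers they were 0.36, 0.21 and 0.65. The part of cell makeup in the Cyp7a1, Hsd3b7 and Akr1d1 values was not tested.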

How the data were processed

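Gene expression in 6 mouse livers, 3 labelled Nek7 iKO and 3 WT by genotype, was taken from 1 deposited table. Titles read iKO for the first group and Ctrl for the group called WT here. The submitters' processing notes name build mm9 and the tools RSEM 1.2.12, Bowtie2 2.2.5 and HISAT2 2.0.4; tool roles and strand use were not given in the sources used here. Values the authors deposited were expected counts (estimated, 64.9% to 68.3% whole within 0.001), FPKM scaled by depth and length, and TPM scaled to a common total.

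Expected counts were rounded and tested with edgeR 4.0.16 in R 4.3.3: filterByExpr, TMM, robust quasi-likelihood F test of iKO against WT over all 13160 genes, Benjamini-Hochberg adjustment, threshold 0.05. CPM are TMM-normalized, SEs were derived as log2 fold change divided by the root of the F statistic, and the smallest detectable level, 3 counts, is at most 0.200 CPM; this limit covers counting error only. A library holds Y-linked reads where Ddx3y and Kdm5d together exceed 10 expected counts. Alternatives were DESeq2 1.42.0, upper-quartile or RLE factors, a filter of only 1 count, limma 3.58.1 with trend on FPKM in log2 (pseudocounts 1 and 0.1), replicate blocking, each library left out, both Y-linked settings, and an offset for transcript length (lowess, span 0.3), along which fold changes ran (Spearman's rho -0.35 across genes, which are not independent). The quasi-likelihood fit, DESeq2 and the offset for transcript length were tried on simulated data, and the other alternatives were not. Every pair of libraries differed by more than sampling noise.

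Named are the 10 genes, Nek7 and up to 6 called genes a list with the largest changes. The 3 genes most like Cyp7a1, Cyp8b1, Cyp7b1 and Nr0b2 are named too. Cyp2c70, Cyp2a12, Slc27a2, Nr1d1, Abcb11 and the feedback receptors were named after their values were seen. So were Cyp2b13, Mup20 and the clock genes Arntl, Npas2, Per1, Per2, Per3 and Ciart. The genes, lists and motifs were chosen with earlier results of these data known. Promoters are RefSeq's, GRCm38.p6, and no mm9 coordinate is printed.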

Additional observations from a re-analysis of the deposited data

How the results depend on the processing

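Cyp7a1 kept its direction in all 16 alternatives and its call in 15; a term for Y-linked reads gave 2.40 (adjusted p = 0.0519). Its log2 fold change lay between 1.55 and 2.21 when 1 liver was left out. Akr1d1, Amacr, Baat and Nr0b2 kept their direction and stayed uncalled in all 16. The ratio of Cyp8b1 to Cyp7a1 was below 0 on the log2 scale in its 8 alternatives, from -3.60 to -1.17 without 1 liver; its test cannot give a p under 0.1. Hsd3b7 kept its direction in all 16 and lost its call in 7: -1.05 with the Y-linked term, -1.03 in the 4 livers with Y-linked reads, and 5 of the 6 fits without 1 liver, which ranged from -1.37 to -0.79. Those fits have fewer samples or 1 more term. The 2 calls among the 10 genes became 0 with the Y-linked term, 1 in the 4 livers with Y-linked reads and 1 to 2 without 1 liver.

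Signs turned for 4 uncalled genes. On log2(FPKM + 1) and log2(FPKM + 0.1), Cyp27a1 was -0.10 and -0.10 and Cyp8b1 -0.55 and -0.57, on a scale where the median of all genes was -0.12 and -0.20 rather than -0.02. With the Y-linked term Cyp27a1 was -0.06, Cyp7b1 -0.45, Cyp8b1 -0.11 and Slc27a5 0.08; in the 4 livers alone they were -0.04, -0.43, -0.08 and 0.09. Without 1 liver Cyp27a1 ran from -0.04 to 0.28, Cyp7b1 from 0.30 to 2.95 (called without WT 1), Cyp8b1 from -1.30 to 1.14 and Slc27a5 from -0.20 to 0.12. The replicate block gave -0.24 for Cyp8b1, 1710 calls over all genes in place of 2024, and changed no call among the 10; the numbers do not pair the livers, since correlations of same-numbered deviations were 0.20, 0.23 and 0.04. The cause of these changes was not tested.

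All-gene calls fell to 184 with the Y-linked term (174 of them among the 2024) and 140 in the 4 livers, and ranged from 493 without WT 2 to 1815 without WT 1, with 938 without iKO 3 and 944 without WT 3. Calls split into 962 higher and 1062 lower in the fit of 6 livers and 421 higher and 931 lower on log2(FPKM + 1). With 3 livers a group, the 95% intervals of Cyp8b1 and Cyp7b1 leave differences of several fold in either direction unresolved.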
